A study of Mus musculus with 4 samples.

Results

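The genes described here are 9 of the 32285 genes counted in the single-cell RNA-Seq libraries: Kitl, Kit, Il7, Il7r, Flt3l, Flt3, Angpt1, Vcam1 and Lepr. They were chosen by symbol, as factors that bone marrow niche cells offer to blood cells and the receptors that read them, and each symbol matched 1 gene. Their levels were compared across cell classes, between callus and trabecular bone, and between glucocorticoid (GC) and control. The study had 4 libraries: callus of a healing fracture and trabecular bone, each from control mice and from mice given prednisolone, a synthetic GC, at 6.25 mg/kg/d and collected at week 2. All 4 groups were wild-type C57BL/6J male mice of 20 weeks, with no transgene or deleted gene. The labels give a slow-release pellet, with or without drug, for every group, whereas the study's text has mice with a fracture injected once a day, so the route used for callus was not settled here. Flushed marrow and crushed, enzyme-digested bone fragments entered the same libraries. How many mice were pooled in a library is not given in the sources used here.

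Hematopoietic stem and progenitor cells depend on signals from stromal and vascular cells around them. Stem cell factor, encoded by Kitl, is displayed or shed by endothelial and perivascular stromal cells and binds the receptor tyrosine kinase encoded by Kit on stem cells, early progenitors and mast cells. Interleukin 7 (Il7) drives B cell progenitors and keeps T cells alive through Il7r, which pairs with the common gamma chain Il2rg or, for the cytokine Tslp, with Crlf2. The ligand Flt3l acts through Flt3 on multipotent progenitors and dendritic cells. Angpt1 activates the endothelial receptor Tek, and Vcam1 holds cells that carry integrin alpha 4 (Itga4) in the marrow. Leptin receptor (Lepr) marks perivascular stromal cells that make much of the marrow Kitl and Cxcl12.

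By the mm10 annotation, Kitl lies at chr10:100015630-100100416 on the plus strand, Kit at chr5:75574916-75656722 (plus) and Lepr at chr4:101717404-101815352 (plus). The other 6 lie on minus strands: Il7 at chr3:7569994-7613760, Il7r at chr15:9505788-9530176, Flt3l at chr7:45129788-45136432, Flt3 at chr5:147330741-147400489, Angpt1 at chr15:42424723-42676977 and Vcam1 at chr3:116109949-116129688. All 9 are annotated as protein coding. The antisense genes Gm16685, Gm43109, Gm26597 and Gm17473 overlap Il7, Vcam1, Flt3 and Angpt1, and their share in these counts was not tested. Flt3l also overlaps Gm45713 on its own strand, which was not among the genes counted in these libraries.

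After filtering, 6714 control and 6890 GC callus cells and 3832 control and 4604 GC trabecular bone cells remained, with a median of 3329 to 6253.5 UMIs (unique molecules counted) per cell. Clusters were made without the 9 genes and named from marker lists, so that each class name means cells like that type. Callus gave 22 classes and trabecular bone 17, and 4.95% and 1.1% of the cells stayed unnamed. The markers fitted a callus, with 4197 chondrocytes, but of 8436 trabecular bone cells 49 were stromal and no cluster was named osteoblast or endothelial, so these libraries held mostly marrow blood cells. Pairs of libraries shared 6 to 11 cell barcodes. Levels are in CPM, the UMIs of a gene over all UMIs summed for a class on the usual CPM scale, and classes are put in order where they had at least 20 cells and 5 UMIs of the gene over both libraries. Each group was 1 library, so no difference between groups has a replicate check, and the 95% intervals given in parentheses (exact Poisson for levels, exact conditional for ratios, Clopper-Pearson for shares of cells) cover counting error only. What separates the GC library from the control library, such as mouse, digestion or run, cannot be told apart from the treatment.

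The 9 genes differed in the class where they were highest. In callus, 4 of them (Kitl, Il7, Angpt1 and Lepr) had their highest level in a nonhematopoietic class and the other 5 in a blood cell class. For Il7 only 2 of 21 callus classes, both of chondrocytes, had the 5 UMIs needed for ranking. No blood cell class could thus have led. The leading intervals of Angpt1, Vcam1 and Flt3l overlapped that of a class of the other compartment. Among the named classes of trabecular bone, Kitl and Lepr were highest in stromal cells, whereas Angpt1 and Vcam1 were highest in blood cells. For Vcam1 the leading class, macrophages, had 43 of its 52 UMIs in 1 cell. The next, granulocyte-monocyte progenitors at 77.5 CPM (72.0 to 83.3), overlapped stromal cells at 64.6 (41.4 to 96.1). The place of Vcam1 by compartment was thus not settled. An unnamed cluster of 14 cells of trabecular bone had more Kitl than its stromal cells, 344 CPM (204 to 544). Nonhematopoietic cells held 91.3% of the Angpt1 UMIs of callus and 1.49% of those of trabecular bone, and for Vcam1 88.6% and 2.41%. The number of cells of a class and the RNA per cell both enter such shares.

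**Figure D1:**
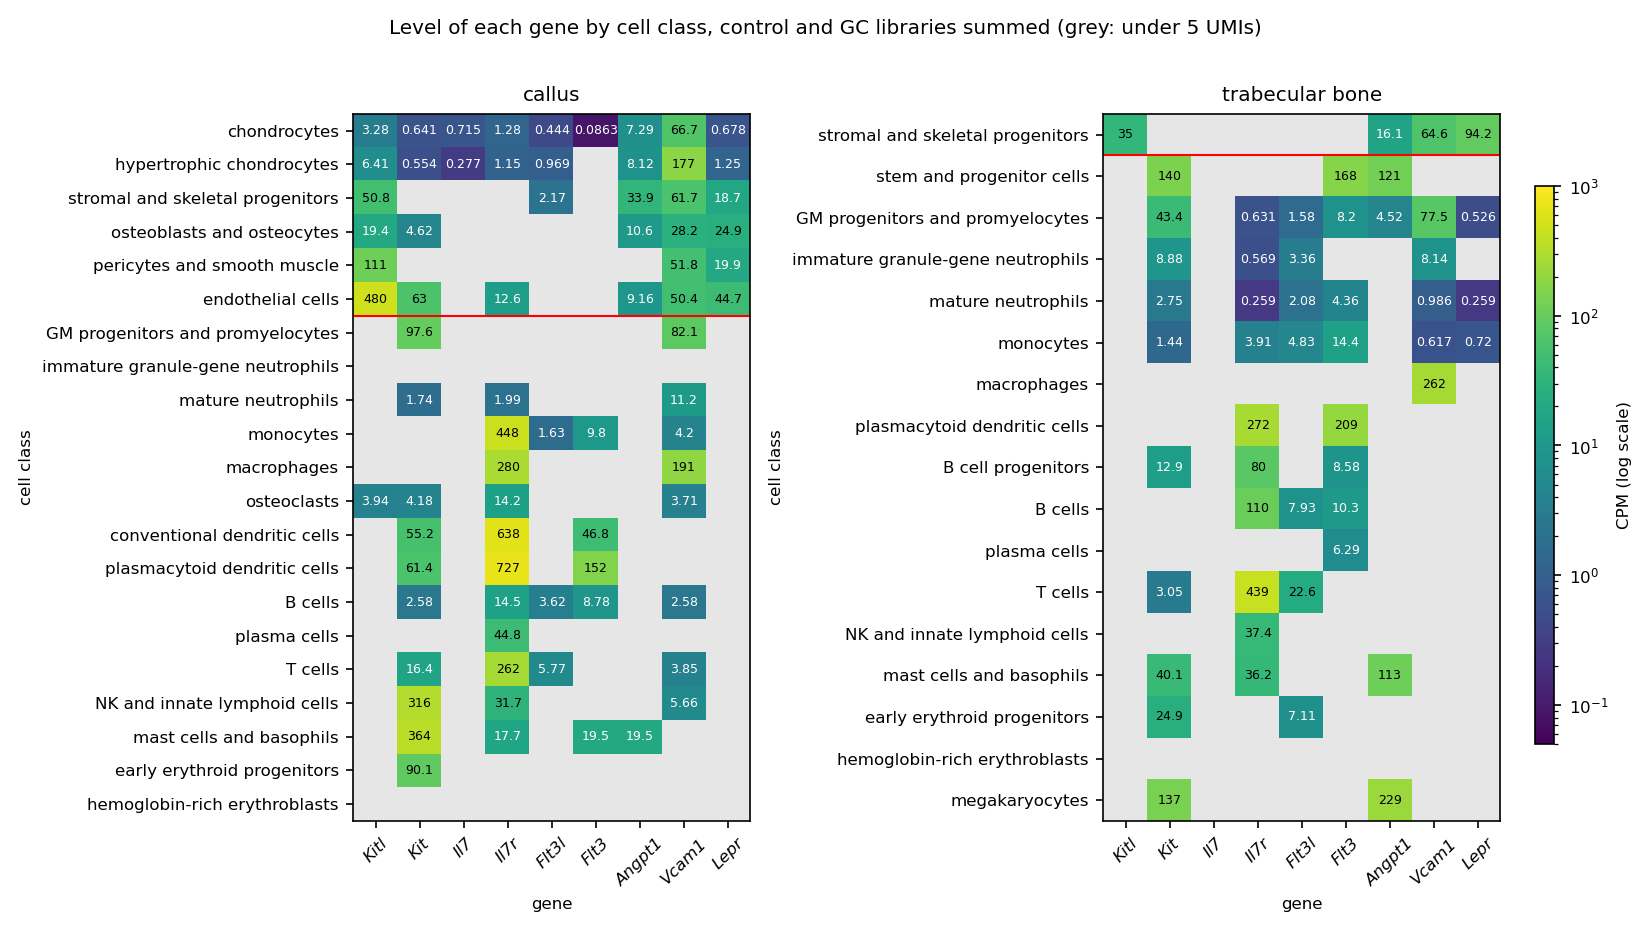
Level of the 9 genes (columns) in each named cell class (rows) of callus (left) and trabecular bone (right), in CPM on a logarithmic color scale with both libraries of a tissue summed. The red line separates nonhematopoietic classes, above, from blood cell classes, and grey cells hold under 5 UMIs. Kitl is brightest in endothelial cells of callus at 480 CPM, and Il7r is bright in dendritic cells and monocytes of callus but in T cells of trabecular bone.

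Over all cells of a tissue, no member passed a 2-fold difference between GC and control. The threshold was set on CPM + 5 for genes with at least 50 UMIs over both libraries, and 0 of 9 members in callus and 0 of 7 in trabecular bone passed it, against 0.522% of 15127 genes and 1.04% of 12151 genes. The median log2 ratio of the members was 0.24 in callus, where that of all genes was 0.02, and 0.05 in trabecular bone, where that of all genes was -0.03. Without the added 5 CPM, the ratio in callus was 2.56 (2.28 to 2.89) for Kitl, 2.49 (1.59 to 3.98) for Il7 and 2.40 (1.85 to 3.13) for Lepr. These 3 genes lay over 2-fold apart as plain ratios and under it on CPM + 5, which shrinks the ratios of low genes. The share of all genes over 2-fold on plain ratios was not taken, so these 3 ratios have no background beside them. The lowest ratio in callus was that of Vcam1, 0.914 (0.879 to 0.95), and the other 5 members lay between 1.34 and 1.65. In trabecular bone Il7r stood highest, with a ratio of 1.75 (1.54 to 1.98), and Vcam1 lowest, with 0.578 (0.507 to 0.657).

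Some of these values moved when class makeup was fixed. With the GC classes weighted as in control, a setting chosen after seeing the data, the log2 ratio of Il7r in trabecular bone went from 0.60 to -0.20 and that of Kit in callus from 0.24 to -0.01. In callus Kitl went from 0.86 to 0.57, Lepr from 0.34 to 0.23 and Il7 from 0.15 to 0.14. The setting also left out unnamed cells and small classes, keeping 18 of 22 callus classes and 11 of 17 in trabecular bone. The parts of reweighting and of leaving cells out were not told apart. The log2 ratio of Vcam1 in trabecular bone was -0.58 over all cells and -0.69 with the fixed makeup. B cells of trabecular bone numbered 283 in control and 16 in GC, and T cells 50 and 167, so the fixed makeup gives the weight of the control B cells to 16 GC cells with 0 UMIs of Il7r.

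Within classes of at least 15 cells per library, 0 of 29 member and class pairs passed 2-fold in callus, where 3.39% of all gene and class pairs did. In trabecular bone 5 of 18 pairs passed, where 4.66% of all pairs did. They were Il7r in T cells, Kit in early erythroid progenitors and Flt3 in mature neutrophils, all higher in GC, and Vcam1 in immature neutrophils and Il7r in B cells, both lower. Flt3 in mature neutrophils had 1 UMI in control and 83 in GC, and Il7r in B cells had 0 in 16 GC cells. Both pairs thus reached the UMI minimum, set over both libraries, almost wholly through 1 library. Of the 2454 trabecular bone pairs of all genes past 2-fold, 1415 lay in B cells, where 39.8% of genes passed. The 5 of 18 pairs therefore do not show whether the members stood apart from other genes.

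**Figure D2:**
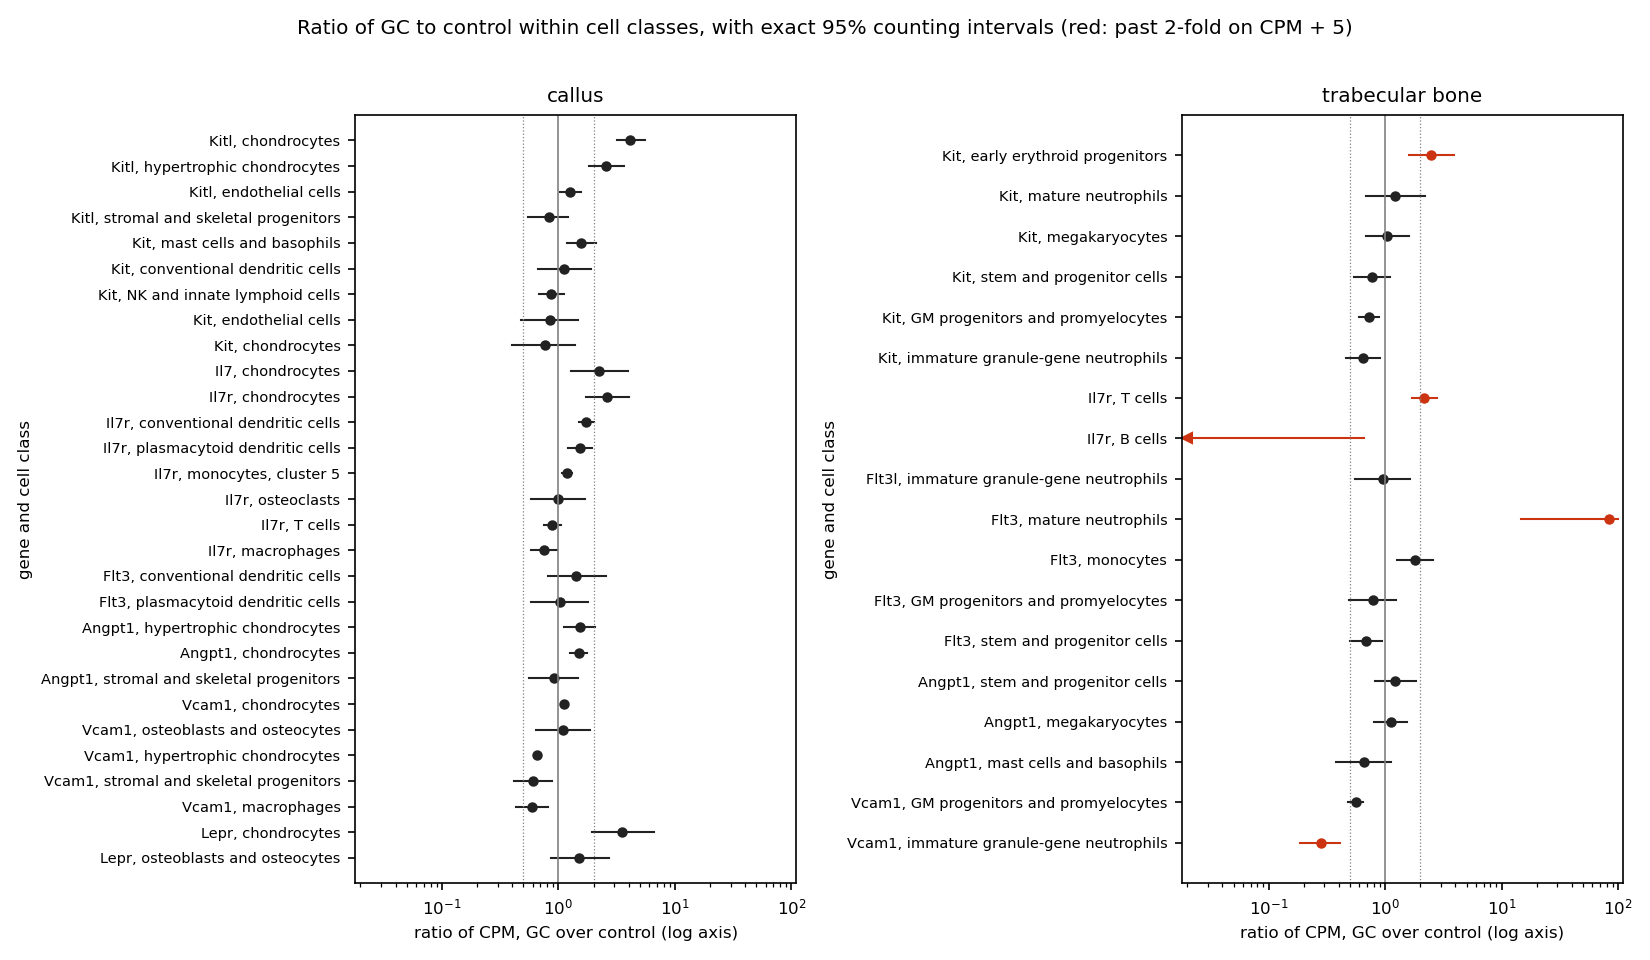
Ratio of GC to control CPM (log axis) for each gene and cell class with at least 50 UMIs, in callus (left) and trabecular bone (right), with exact 95% counting intervals. Red marks pairs past 2-fold on CPM + 5, dotted lines mark 2-fold, the arrow marks Il7r in B cells, which had 0 UMIs in GC, and the interval of Flt3 in mature neutrophils runs past the axis to 3355. All 29 callus pairs are black and 5 of the 18 trabecular bone pairs are red.

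Among the classes of callus, Kitl was highest in endothelial cells, which held 34.7% of its UMIs there. In endothelial cells Kitl was at 422 CPM (362 to 488) in the control library, with UMIs in 32 of 52 cells. It was at 535 CPM (469 to 606) in the GC library, with UMIs in 56 of 83 cells. Over both libraries the level was 480 (435 to 528), above 111 (74.1 to 161) in pericytes and smooth muscle cells, 50.8 (42.0 to 60.9) in stromal and skeletal progenitors and 19.4 (14.0 to 26.2) in osteoblasts and osteocytes. The intervals of these 4 neighbors in the order did not overlap. Within the stromal class, however, 1 cluster of 21 cells had 475 CPM (370 to 602), which overlaps the endothelial level. The overlap rested on 1 control cell with 35 of the cluster's 69 UMIs. Without that cell the cluster had 251 CPM, below the endothelial interval. Mature neutrophils, which should lack it, had 0.745 CPM. In trabecular bone Kitl amounted to 37 UMIs, of which 13 lay in the 49 stromal cells, at 35.0 CPM (18.6 to 59.8), and most of the GC ones, 16 of 22, in unnamed cells.

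Kitl in the cartilage cells of callus was low in both libraries, and the empty droplets of control callus held 7.38 CPM (2.97 to 15.2), at or above the control levels. The part of free RNA in the values was not measured, and empty droplets of GC callus were not analysed here. An alternative setting took a fixed 10% of each class's UMIs off by the profile of the control empty droplets. Over all settings that gave a value, that one among them, the log2 ratio in chondrocytes lay between 0.28 and 1.52. Chondrocytes had 1.47 CPM (1.16 to 1.85) in control and 6.11 (5.28 to 7.04) in GC, a ratio of 4.15 (3.15 to 5.51), and hypertrophic chondrocytes 4.22 and 10.8, a ratio of 2.57 (1.81 to 3.65). On CPM + 5 both came to a log2 ratio of 0.78, short of 2-fold, since the levels were low. The hypertrophic value was -0.34 when cells were called by a UMI cutoff alone and -0.08 when the niche genes took part in clustering. Both settings redraw the clusters. The cutoff was 7535 UMIs in control callus and 0 in GC callus, whose barcodes were already chosen. The value of -0.34 thus sets deep control cells against GC cells of any depth, and is not a like comparison of the 2 libraries. Osteoblasts and osteocytes had 11.8 CPM in control and 28.6 in GC, a ratio of 2.42 (1.23 to 4.97) from 14 and 28 UMIs. The 3 skeletal classes therefore lay on the same side, and their levels in the 2 libraries did not overlap in chondrocytes and hypertrophic chondrocytes. Stromal and skeletal progenitors had 55.1 CPM in control and 45.3 in GC, a ratio of 0.822 (0.553 to 1.21), which turned to a log2 ratio of 0.58 without the cell richest in Kitl.

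The chondrocyte value rested partly on cells seen almost solely in GC. At least 90% of the cells of 5 chondrocyte clusters came from GC callus, 1052 cells against 15, with a median of 2447 UMIs where the other GC chondrocytes had 20497. Kitl was at 18.1 CPM (14.1 to 23.0) in them. The same cells held 71.1 CPM of the leukocyte gene Ptprc and 1796 CPM of the hemoglobin gene Hbb-bs, against 1.80 and 92.7 CPM in the other GC chondrocytes. Their part in the Kitl difference was measured by leaving them out, a setting chosen after seeing the data: the ratio was then 3.05 (2.26 to 4.12). In each of the 4 chondrocyte clusters with enough cells and UMIs of both libraries Kitl was higher in GC, with an interval above 1 in 1 of them. Another 155 of the 775 Kitl UMIs of GC callus, or 20.0%, lay in unnamed cells, against 7 of 431 in control, or 1.62%.

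In endothelial cells the Kitl ratio of GC to control was 1.27 (1.04 to 1.55). A single GC cell held 29 of the 241 GC UMIs, and without it the ratio was 1.15 (0.941 to 1.42). With each cell thinned to 1000 UMIs, the share with Kitl was 28.0% of 50 control cells and 42.7% of 75 GC cells, after 2 and 8 shallower cells were left out. Among the 88 endothelial cells with Kitl, 22 also had its receptor Kit and 40 had Cxcl12, the chemokine that retains stem cells. The 47 without Kitl had Kit in 1 and Cxcl12 in 6, and depth per cell, which raises every such share, was not separated here.

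Kit, the receptor, was highest in mast cells and in NK and innate lymphoid cells of callus, at 364 CPM (316 to 418) and 316 (280 to 355), which did not differ beyond their intervals. Granulocyte-monocyte progenitors followed at 97.6 (70.9 to 131) and early erythroid progenitors at 90.1. In trabecular bone the order was another: stem and progenitor cells had 140 CPM (117 to 165) and megakaryocytes 137 (111 to 168), then granulocyte-monocyte progenitors 43.4 and mast cells 40.1. A UMI of Kit was found in 41 of 50 stem and progenitor cells. The innate lymphoid class, which also takes in NK cells, had 339 CPM in control and 294 in GC callus, whereas that of trabecular bone held 1 UMI in each library, in 8 and 21 cells. Chondrocytes of callus, which should lack Kit, had 0.641 CPM.

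Early erythroid progenitors of trabecular bone had more Kit in GC. The level was 15.6 CPM (10.8 to 21.8) in control and 38.6 (29.2 to 50) in GC, a ratio of 2.48 (1.59 to 3.90), and the pair passed 2-fold where 1.03% of 5827 genes did. Kit UMIs lay in 9 of 126 control cells and 8 of 101 GC cells, so that about as many cells carried them. All of these UMIs lay in 1 cluster, of 44 control and 40 GC cells, with a ratio there of 2.51 (1.61 to 3.96). A single GC cell of 84403 UMIs held 18 of the 57 GC UMIs, and without it the GC level was 28.0, the ratio 1.80 (1.1 to 2.93), and the pair no longer passed 2-fold. Leaving out the cell richest in a gene was a setting chosen after seeing the data.

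Kit in mast cells of callus moved the other way with the same step. It was 289 CPM in 29 control cells and 452 in 22 GC cells, a ratio of 1.56 (1.18 to 2.08), but 1 control cell held 37 of the 88 control UMIs. Without that cell the control level was 181 and the ratio 2.50 (1.78 to 3.54), past 2-fold. Granulocyte-monocyte progenitors of trabecular bone had 51.2 CPM of Kit in control and 37.4 in GC, a ratio of 0.731 (0.60 to 0.891), and Kit was lower in GC in each of the 5 clusters compared, with an interval of the ratio below 1 in 1 of them. Stem and progenitor cells had 163 and 125 CPM and megakaryocytes 135 and 140, both with intervals of the ratio that include 1.

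Lepr, the receptor for leptin and the usual mark of perivascular niche stroma, was a stromal gene in trabecular bone at 94.2 CPM (65.6 to 131), with 75.6 in control and 103 in GC from 9 and 26 UMIs. The next class, monocytes, had 0.720 CPM, and 62.5% of the 56 Lepr UMIs of trabecular bone were stromal. In callus Lepr was spread over endothelial cells at 44.7 CPM, osteoblasts and osteocytes at 24.9, pericytes at 19.9 and stromal cells at 18.7, and only the first and the last of these 4 had intervals apart. The endothelial value leaned on 1 GC cell of 14798 UMIs, which held 23 of its 39 UMIs, and was 18.6 without it. The GC endothelial cell richest in Kitl, with 29 UMIs of it, had the same total, as did the one richest in Vcam1, with 13. Of the 28 osteoblasts and osteocytes with Kitl, 14 also had Lepr, against 14 of the 87 without Kitl. In stromal cells of trabecular bone, Kitl lay in 2 of 14 cells with Lepr and in 5 of 35 without it. Lep, the gene of leptin itself, had 3 UMIs in callus and 0 in trabecular bone.

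Within the stromal class of callus, the cluster with the highest Cxcl12 level was picked for description, so its lead in Cxcl12 follows from that choice. It also held most of the class's Kitl and Lepr UMIs. Its 21 cells (7 control, 14 GC), of 184 in the class, held 59.0% of the class's Kitl UMIs, 67.4% of its Lepr and 82.5% of its Cxcl12. Kitl stood at 475 CPM (370 to 602) there and Lepr at 200 (134 to 287), and Cxcl12 reached 5394 CPM (5022 to 5785). Cxcl12 lay in 19 of the 21 cells, among them all 9 with Lepr. Kitl lay in 14 cells, and 4 of these also had Lepr. With 29 UMIs of Lepr and a median of 5140 UMIs per cell, these counts cannot show whether the 2 genes lie in separate cells. The transcription factors Foxc1 and Ebf3, which maintain such niche cells, were at 276 and 255 CPM, and Foxc1 was also at 142 CPM in the other stromal clusters. The fat cell gene Lpl was at 2331 CPM in the control cells of the cluster and 178 in its GC cells, and Adipoq at 393 and 9.35, with 15 of its 16 UMIs in 2 control cells. Angpt1 was at 124 CPM and Vcam1 at 200, with 23.1% and 20.4% of the class's UMIs, while Il7, the other cytokine made by these cells, gave 2 UMIs. Lpl and Adipoq were among the marker genes of the stromal class, whereas Kitl, Lepr, Cxcl12, Foxc1, Ebf3, Angpt1 and Vcam1 took no part in clustering or naming. Cxcl12 did decide which cluster was described.

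The 2 libraries differed in this cluster, on few cells. Kitl was 1257 CPM in the 7 control cells and 196 in the 14 GC cells, and Cxcl12 15899 and 1645 CPM. A single control cell held 35 of the 69 Kitl UMIs, and without it the level over both libraries was 251. The other stromal clusters had 22.3 CPM of Kitl, 6.49 of Lepr and 77.0 of Cxcl12.

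**Figure D3:**
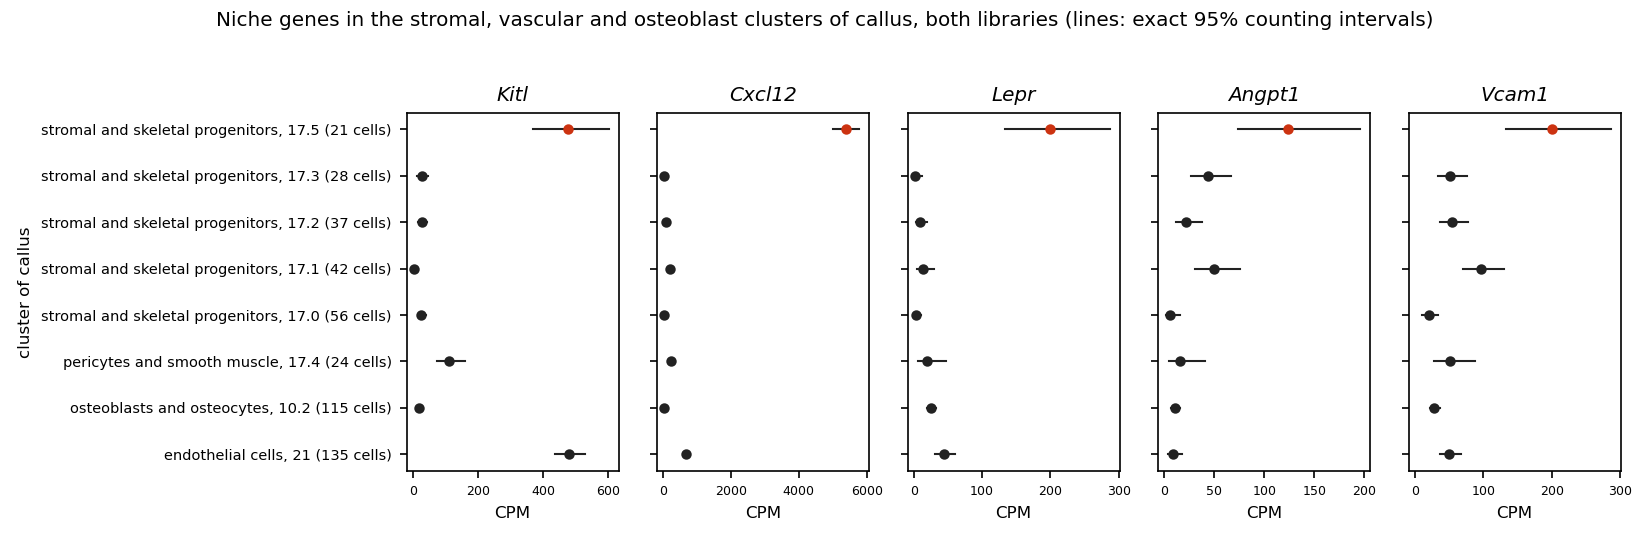
Kitl, Cxcl12, Lepr, Angpt1 and Vcam1 (panels, CPM on linear axes that differ between panels) in the stromal, pericyte, osteoblast and endothelial clusters of callus, both libraries summed, with exact 95% Poisson intervals. The red cluster of 21 cells was picked as the stromal cluster highest in Cxcl12. It lies highest in all 5 panels except for Kitl, where endothelial cells at 480 CPM overlap its 475.

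The leading classes of Angpt1, the activating ligand of Tek, differed between the 2 tissues, as did the classes that could be ranked. Callus megakaryocytes, 11 control and 8 GC cells, were under the 20-cell minimum, and no callus cluster was named stem and progenitor cells. Trabecular bone had no cluster named chondrocytes. In callus stromal and skeletal progenitors led with 33.9 CPM (26.8 to 42.3), followed by mast cells at 19.5 and osteoblasts and osteocytes at 10.6, and chondrocytes, with 7.29 CPM but many more cells, held over 60% of the UMIs of each library (61.5% and 61.1%). In trabecular bone megakaryocytes led with 229 CPM (194 to 267), ahead of stem and progenitor cells at 121 (100 to 145) and mast cells at 113 (85.7 to 145), while its stromal cells had 16.1. Angpt1 lay in 38 of 42 megakaryocytes and 41 of 50 stem and progenitor cells, and 37 of the 41 stem and progenitor cells with Kit had it. Its receptor Tek was at 191 CPM and the related Tie1 at 332 in endothelial cells of callus, which also had 110 CPM of Angpt2, the competing ligand.

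No Angpt1 pair passed 2-fold. Megakaryocytes had 216 CPM in control and 241 in GC, and stem and progenitor cells 107 and 130, with intervals of the ratio from 0.806 to 1.55 and from 0.820 to 1.82. In callus the ratio was 1.49 (1.26 to 1.76) in chondrocytes and 1.5 (1.26 to 1.77) without the clusters that were mostly GC, and 0.914 (0.564 to 1.47) in stromal cells. The levels behind the chondrocyte ratio were 6.12 and 9.12 CPM, and of the 10 chondrocyte clusters compared 3 were lower in GC and 7 higher, 1 of them with an interval above 1. The stromal value turned to 0.40 on the log2 scale when no doublets were removed.

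Vcam1, the adhesion molecule, was highest in macrophages and hypertrophic chondrocytes of callus, at 191 CPM (165 to 220) and 177 (172 to 183), whose intervals overlap. Granulocyte-monocyte progenitors had 82.1, chondrocytes 66.7 and stromal cells 61.7. The empty droplets of control callus held 74.8 CPM (58.5 to 94.4) of Vcam1, and mature neutrophils, which should lack it, 11.2, so low values in callus blood cells could not be read as expression. In trabecular bone, where empty droplets had 8.60 CPM or less, granulocyte-monocyte progenitors had 77.5 CPM (72.0 to 83.3) and held 70.6% of the control and 79.6% of the GC UMIs. Macrophages of trabecular bone, nominally higher at 262, had 43 of 52 UMIs in 1 control cell and 46.2 CPM without it. One cluster of 70 granulocyte-monocyte progenitors reached 220 CPM (198 to 243), with UMIs in 58 cells.

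Vcam1 was lower in GC in 5 of the 7 classes compared. In granulocyte-monocyte progenitors of trabecular bone it was 103 CPM (93.5 to 113) in control and 57.6 (51.4 to 64.4) in GC, a ratio of 0.559 (0.481 to 0.649), lower in all 4 clusters compared and with an interval below 1 in 3 of them. Immature neutrophils had 13.3 CPM (10.9 to 16.1) in control and 3.71 (2.58 to 5.15) in GC, a ratio of 0.279 (0.185 to 0.411), and passed 2-fold where 0.908% of 7823 genes did. The empty droplets had 8.60 CPM (2.34 to 22.0) in control and 5.89 (1.22 to 17.2) in GC, with intervals that take in the class's levels. Their part in the result was not measured. The log2 ratio lay between -1.60 and -0.49 over the alternative settings, among them taking off a fixed 10% of UMIs by the control empty-droplet profile. Without the control cell richest in Vcam1 their log2 ratio was -0.99, just inside 2-fold, and in the 3 clusters that could be compared the ratios were 0.465 to 0.617 with intervals that include 1. Both classes of the granulocyte line thus had less Vcam1 in the GC library, and the part of their subsets in this was not tested further.

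In callus, hypertrophic chondrocytes had 200 CPM (193 to 207) in control and 132 (123 to 140) in GC, a ratio of 0.658 (0.611 to 0.709), with Vcam1 lower in 5 of 7 clusters and the interval below 1 in 4. Macrophages had 232 and 138 CPM, a ratio of 0.596 (0.430 to 0.817), which turned to a log2 ratio of 0.13 with at most 5% mitochondrial UMIs per cell. Stromal cells had 74.2 and 45.3 CPM, a ratio of 0.610 (0.418 to 0.877), and 1.2 in the 1 cluster that could be compared. Chondrocytes as a class went the other way, with 63.7 and 71.4 CPM and a ratio of 1.12 (1.06 to 1.18). Yet Vcam1 was lower in GC in 11 of the 12 chondrocyte clusters with enough cells and UMIs of both libraries, with an interval below 1 in 10. The clusters that were at least 90% GC had 137 CPM (126 to 150), and without them the class ratio was 0.982 (0.925 to 1.04). Of the 1740 GC UMIs then left, 994 lay in 1 of the 12 clusters, with 59 control and 303 GC cells. Vcam1 was at 208 CPM in its control and 166 in its GC cells. The integrin subunits that bind Vcam1 were widely found, Itga4 at 473 CPM in plasma cells of callus and 216 in early erythroid progenitors of trabecular bone, and Itgb1 at 1196 CPM in callus endothelial cells.

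Il7, the ligand, was near the limit of detection. It gave 88 UMIs in 13604 callus cells and 6 in 8436 trabecular bone cells. Chondrocytes held 58 of the 88, at 0.715 CPM (0.543 to 0.924), with 0.485 in control and 1.08 in GC, a ratio of 2.22 (1.28 to 3.92). Only 53 of 4197 chondrocytes had a UMI of it. In trabecular bone 0 of 49 stromal cells had a UMI of Il7. With 3 cells taken as the upper limit of a count of 0, this allows a share with a UMI of up to 6.12%. That rule is not the Clopper-Pearson one, and it sets no limit on cells that express Il7.

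Il7r, the receptor, was found in myeloid cells as well as in lymphocytes. In callus plasmacytoid dendritic cells had 727 CPM (646 to 814), conventional dendritic cells 638 (594 to 685), monocytes 448 (428 to 469), macrophages 280 (248 to 315) and T cells 262, whereas chondrocytes, which should lack it, had 1.28. Dendritic cells of both kinds overlapped, monocytes lay clearly lower, and macrophages and T cells overlapped. In trabecular bone T cells led with 439 CPM (407 to 472), ahead of plasmacytoid dendritic cells at 272 (216 to 337), B cells at 110 and B cell progenitors at 80.0. Cells named monocytes were the class in which the tissues stood furthest apart: 419 CPM in control and 484 in GC callus, against 4.90 and 2.98 in control and GC trabecular bone. The classes were built in each tissue on its own, and tissue and library cannot be told apart in this contrast. Ratios of GC to control in callus monocytes were taken for cluster 5 alone, with 982 cells, and not for the whole class. The leading genes of that cluster held more markers of another class than of monocytes. The name is thus less sure for most callus cells of this class, and the contrast may not set monocytes against monocytes. Whether the cells named monocytes in callus and in trabecular bone are alike was not tested.

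**Figure D4:**
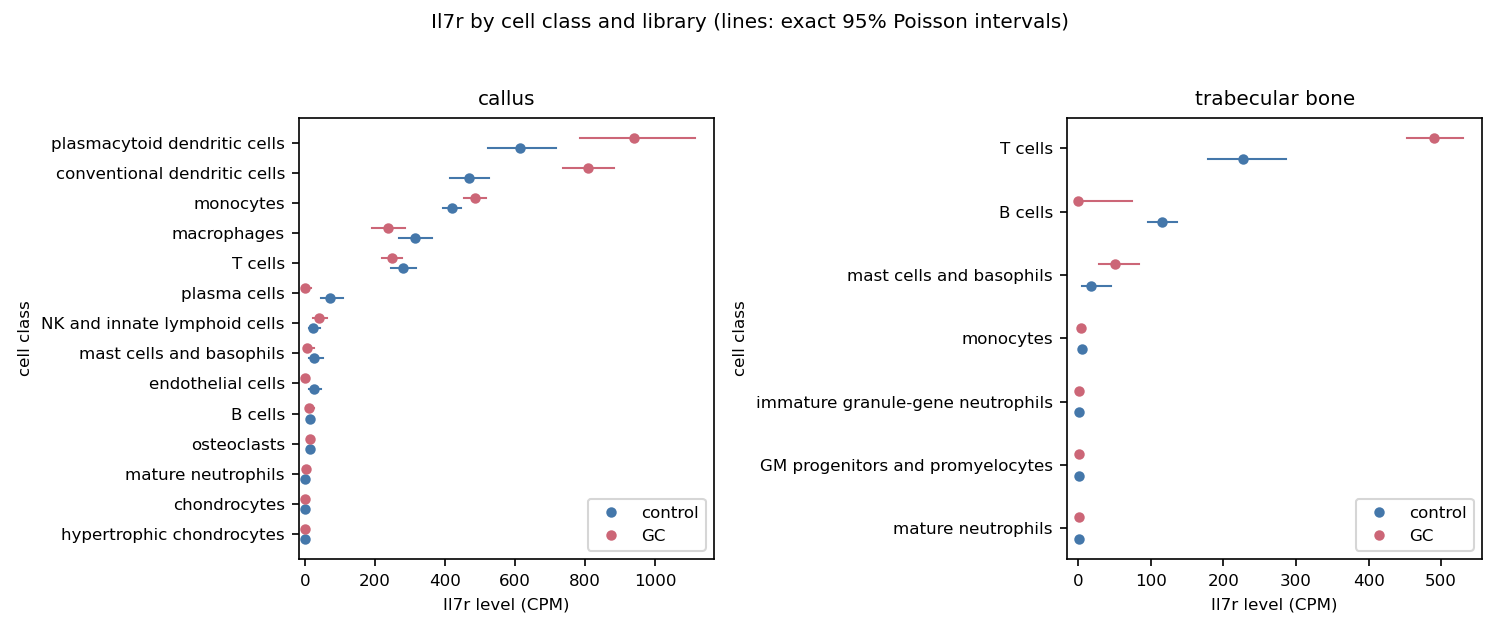
Il7r level in CPM (linear axis) by cell class in control (blue) and GC (red) libraries of callus and trabecular bone, with exact 95% Poisson intervals, for classes with at least 15 cells in each library and 5 UMIs in all. Dendritic cells of callus and T cells of trabecular bone have control and GC intervals that do not overlap, with GC higher. Cells named monocytes lie above 400 CPM in callus (419 and 484), where the name is less sure, and below 5 in trabecular bone (4.90 and 2.98).

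T cells of trabecular bone had more Il7r in GC. The level was 227 CPM (178 to 286) in 50 control cells and 490 (453 to 530) in 167 GC cells, a ratio of 2.16 (1.69 to 2.79), and the pair passed 2-fold where 6.68% of 3712 genes did. Cells with a UMI were 46.0% (31.8 to 60.7) of control and 86.2% (80.1 to 91.1) of GC, and 25% and 44.0% after thinning to 1000 UMIs, which left out 2 and 1 cells. The share in hemoglobin-rich erythroblasts was 0 of 660, at a median depth of 5894 UMIs where T cells had 6010 and 6537. With 3 cells taken as the upper limit of a count of 0, this allows a share with a UMI of up to 0.455%. In the cluster that held most control T cells, with 45 control and 69 GC cells, Il7r was 203 and 550 CPM, a ratio of 2.71 (2.04 to 3.65). The other 2 T cell clusters were almost all GC, 59 of 62 and 39 of 41 cells, with 360 and 757 CPM. In callus T cells Il7r was 281 CPM in control and 249 in GC, a ratio of 0.884 (0.745 to 1.05), and the difference between the 2 tissues in this contrast was not tested.

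Dendritic cells of callus followed the same direction at a smaller size. Conventional dendritic cells had 468 CPM (414 to 526) in control and 808 (737 to 883) in GC, a ratio of 1.73 (1.49 to 2.01), higher in GC in all 3 clusters compared with an interval above 1 in 2. Plasmacytoid dendritic cells had 614 and 938 CPM, a ratio of 1.53 (1.21 to 1.93), and the largest monocyte cluster 412 and 490, a ratio of 1.19 (1.08 to 1.30). Macrophages were lower in GC, with 313 and 236 CPM and a ratio of 0.753 (0.584 to 0.968). Among Il7r's partners, conventional dendritic cells had 82.8 CPM of Crlf2 and 69.4 of Il2rg, and the signal transducer Stat5a was higher there in GC, 60.3 against 139 CPM, a ratio of 2.30 (1.54 to 3.50). In that class 5.21% of 3088 genes passed 2-fold either way. Crlf2 was also at 143 CPM in mature neutrophils of callus, which had 1.99 CPM of Il7r.

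In B cells of trabecular bone Il7r was 115 CPM (96.5 to 135) in 283 control cells and 0 UMIs in 16 GC cells, a ratio of 0 (0 to 0.653). The B cell comparison was out of scale with the others: 39.8% of 3555 genes passed 2-fold in it and the median log2 ratio of all genes was -0.53. All 16 GC cells lay in a cluster with 7.80 CPM of Il7r in its 75 cells, and no GC cell lay in the other B cell clusters, so the GC library offered no cells to set beside the control B cells that carried Il7r. B cell progenitors, which depend on Il7, were 35 in control and 0 in GC.

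Flt3l, the ligand, gave few UMIs in any class. T cells had the highest level in both tissues, 5.77 CPM (2.98 to 10.1) in callus and 22.6 (15.9 to 31.1) in trabecular bone, followed by B cells at 3.62 and 7.93. Those neighbors overlap in callus and not in trabecular bone, and stromal cells of callus had 2.17. In the T cell cluster of trabecular bone with both libraries, Flt3l was 46.5 CPM in control and 15.6 in GC, a ratio of 0.336 (0.115 to 0.891) from 14 and 7 UMIs. Over all cells Flt3l had ratios of 1.5 (1.03 to 2.19) in callus and 0.839 (0.652 to 1.08) in trabecular bone.

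Flt3, its receptor, was highest in plasmacytoid dendritic cells, with 152 CPM (117 to 195) in callus and 209 (161 to 267) in trabecular bone. Stem and progenitor cells of trabecular bone followed at 168 (143 to 196), then monocytes at 14.4, and in callus conventional dendritic cells followed at 46.8. In stem and progenitor cells Flt3 was 209 CPM (165 to 261) in control and 143 (115 to 177) in GC, a ratio of 0.686 (0.499 to 0.943), which turned to a log2 ratio of 0.14 with at most 5% mitochondrial UMIs per cell. In monocytes of trabecular bone it was 10.2 and 18.3 CPM, a ratio of 1.79 (1.25 to 2.59) that was above 1 in both clusters compared. Plasmacytoid dendritic cells of callus had 151 and 155 CPM, a ratio of 1.03 (0.583 to 1.78). In stem and progenitor cells 32 of 38 cells with Flt3 and 9 of 12 cells without it had Kit.

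Mature neutrophils of trabecular bone had more Flt3 in GC. Control neutrophils had 1 UMI in 1839 cells, 0.103 CPM (0.00261 to 0.575), and GC neutrophils 83 UMIs in 2215 cells, 8.66 CPM (6.90 to 10.7), a ratio of 84.0 (14.7 to 3355). The pair passed 2-fold where 3.44% of 7351 genes did, and the median log2 ratio of all genes in this class was 0.24. Cells with a UMI were 0.0544% (0.00138 to 0.303) of control and 3.34% (2.63 to 4.18) of GC, at median depths of 5104 and 3850 UMIs. Thinned to 1000 UMIs, the shares were 0.0553% and 1.1%, with 30 and 41 cells left out. Most of these cells, 67 of 74, had a single UMI.

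The signal came from particular clusters. Mature neutrophils of trabecular bone fell into clusters that were mostly of 1 library, and clusters 1 and 6, with 881 and 487 cells of GC alone, held 28 and 48 of the 83 UMIs. Cluster 6 was at 36.5 CPM (26.9 to 48.4) with Flt3 in 8.01% of its cells, cluster 1 at 8.45 CPM with 3.18%. The other 7 GC UMIs lay in clusters 0.0 and 0.2, with 1 and 7 control cells beside 392 and 262 GC cells, and the control UMI in cluster 8, with 409 control and 4 GC cells, so no cluster with many cells of both libraries carried the difference.

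Values that bear on other cells and on free RNA were read beside this. Flt3 was at 1.96 CPM (0.0497 to 10.9) in the empty droplets of GC trabecular bone and at 2.15 in those of control, and hemoglobin-rich erythroblasts, which should lack it, had it in 2 of 660 cells, 0.303%. The 74 GC neutrophils with Flt3 had UMIs of all 10 mature neutrophil markers, at a summed 178992 CPM where the GC neutrophils without Flt3 had 290869 and those without it in clusters 1 and 6 had 212478. The cells with Flt3 had 185 CPM of the stem and progenitor list (2 of its 11 genes) and 11.3 CPM of the plasmacytoid dendritic cell list (1 of its 8 genes). The GC neutrophils without Flt3 had 421 CPM (7 of 11) and 10.7 CPM (5 of 8) of those lists. Those without it in clusters 1 and 6 had 404 CPM (7 of 11) and 12.7 CPM (4 of 8). The conventional dendritic cell list stood at 37.7, 24.2 and 39.0 CPM in these 3 sets of cells. They held 74, 2141 and 1301 cells, and the number of genes found rises with the number of cells. Immature neutrophils had 0 and 1 Flt3 UMI in 681 and 915 cells, and mature neutrophils of callus 0 in 1678 and 1 in 1339.

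**Figure D5:**
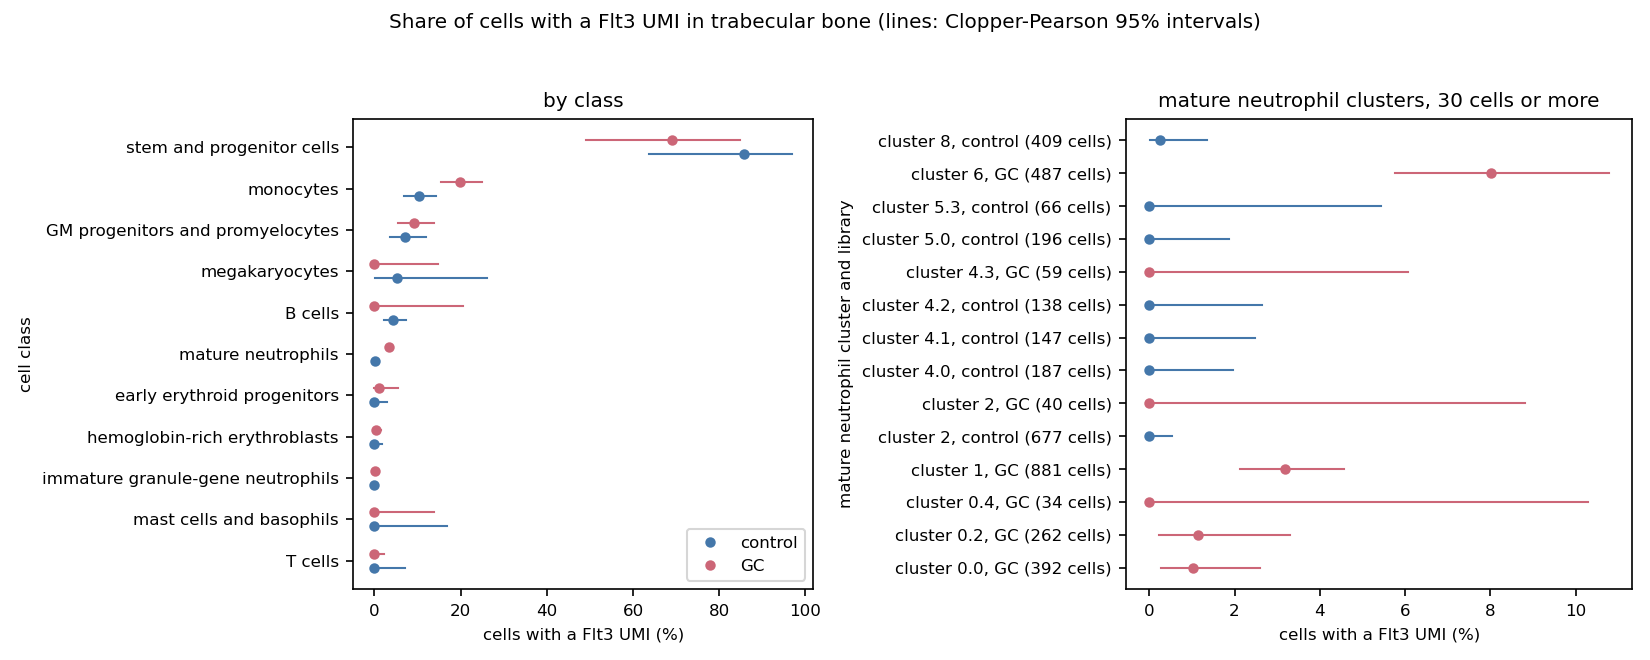
Percent of cells with a Flt3 UMI in trabecular bone by cell class (left) and by mature neutrophil cluster and library (right, clusters and libraries of at least 30 cells), control blue and GC red, with Clopper-Pearson 95% intervals. GC clusters 6 and 1 lie at 8.01% and 3.18%, and every control cluster lies at or below 0.244%.

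Over all cells, 0 of 12 direct partners of the 9 genes in callus and 0 of 11 in trabecular bone passed 2-fold, as did 0 of 18 and 0 of 14 other niche genes. The medians of the log2 ratio in callus were 0.21 and 0.18 where that of all genes was 0.02, and in trabecular bone -0.02 and 0.02 where it was -0.03. Within classes a list had at most 3 genes past 2-fold, as in monocytes of cluster 5 of callus, where 3 of 7 other niche genes were higher. Of all 6006 genes there, 4.63% passed 2-fold either way and 2.35% were higher in GC. Cxcl12 stood out by value in callus: endothelial cells had 324 CPM in control and 989 in GC, a ratio of 3.05 (2.51 to 3.72), and stromal cells 546 and 236, a ratio of 0.433 (0.372 to 0.502). Past 2-fold either way were 3.42% of 3241 genes in endothelial cells and 2.8% of 5831 in stromal cells. The endothelial Cxcl12 ratio was not taken without the GC cell of 14798 UMIs that was richest in Kitl and Lepr. Of the 714 control UMIs of stromal Cxcl12, 607 lay in the 7 control cells of the small stromal cluster, and the other stromal clusters had 84.3 CPM (69.1 to 102) in control and 66.5 (50.6 to 85.8) in GC. Itga4, the receptor side of Vcam1, was 102 CPM in control and 46.1 in GC in stem and progenitor cells, a ratio of 0.453 (0.268 to 0.758), and 20.6 and 46.3 in mature neutrophils, a ratio of 2.25 (1.90 to 2.67). Itgb1 in the same neutrophils had a ratio of 3.05 (2.30 to 4.09). Past 2-fold either way were 1.87% of 2895 genes in those stem and progenitor cells and 3.44% of 7351 in those neutrophils.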

How the data were processed

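Each of the 4 single-cell libraries (1 per group, labels as given by the submitters) was deposited as a matrix of counts, whole numbers of UMIs per gene and barcode, made by the authors with Cell Ranger on mm10. The submitters' processing notes name Cell Ranger 5.0.1 and Seurat 3.2.0, whereas file headers name Cell Ranger 4 and 4.0.0. The supplemental methods were not used here. Total UMIs were 95852254 and 64388215 in control and GC callus and 41239842 and 45876714 in control and GC trabecular bone. For GC callus the matrix held 7762 barcodes already chosen, with at least 500 UMIs, so its empty droplets could not be read, and cells of the other libraries were called here.

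Cells were barcodes over 10% of the 99th percentile of the top 3000, or with at least 500 UMIs and unlike the empty droplets (ranks 45001 to 90000) in 10000 simulations at a false discovery rate of 0.01. Cells with under 200 genes or over 10% mitochondrial UMIs were left out, as were the highest simulated-doublet scores, 0.8% per 1000 cells. Each tissue was clustered on its own (2000 variable genes, 30 components, 15 neighbors, Leiden resolution 1, then subclusters), with the 9 members, 14 direct partners and 20 other niche genes kept out, and named by 247 marker genes of 26 classes, where at least 3 markers passed 2-fold and 10% of cells. Python 3.11.15, numpy 2.4.6, scipy 1.17.1, scikit-learn 1.9.0, igraph 0.11.9 and leidenalg 0.10.2 were used, and cell calling and ratios were tested on simulated data.

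Ratios of GC to control used classes of at least 15 cells per library and 50 UMIs over both, on log2 of CPM + 5. With 1 library per group no test was made. The genes named were the 9 members, direct partners where a result turned on them, other niche genes past 2-fold, and the genes most like each member over classes. The members, partner lists and marker lists were chosen with earlier results of these data known. Of the 19 alternative settings, 4 were chosen after seeing the data. A planned setting took 10% of each class's UMIs off by the profile of the control empty droplets of the tissue. Gene positions are from GENCODE M21 and promoter windows from RefSeq, both on GRCm38.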

Additional observations from a re-analysis of the deposited data

Results flagged for a closer look

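A pair of results lay in cells outside the named classes and above every named class of their tissue. Vcam1 was at 321 CPM (297 to 346) in an unnamed callus cluster of 134 cells, 128 of them GC, from 688 UMIs. Kitl was at 344 CPM (204 to 544) in an unnamed trabecular bone cluster of 14 cells, 10 of them GC, from 18 UMIs, where the markers of endothelial cells and of pericytes and smooth muscle cells stood at a like level. The difference of either cluster from the named classes was not tested.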

How the results depend on the processing

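No paired analysis was possible because each group was 1 library and no test was made, and for the same reason no library could be left out. Of 9 members over all callus cells, 1 (Kitl) passed 2-fold with 1 CPM added in place of 5, and 0 passed under every other setting tried there. In trabecular bone 0 passed over all cells under every setting. Of the callus pairs, 0 in the report, 2 passed with 1 CPM added, 5 with a minimum of 20 UMIs, 5 with the mean over cells, 1 of 8 after thinning to 1000 UMIs, 3 with a UMI cutoff alone, 2 with at least 1000 UMIs per cell, 1 with at most 5% mitochondrial UMIs, 2 at Leiden resolution 2, 2 with the niche genes kept in clustering and 1 without the cell richest in the gene. Of the trabecular bone pairs, 5 in the report, 2 passed with 20 CPM added, 1 of 1 after thinning, 2 with a UMI cutoff alone, 3 with at least 1000 UMIs per cell, 2 with at most 5% mitochondrial UMIs and 3 without the cell richest in the gene. The share of all gene and class pairs past 2-fold, 3.39% in callus and 4.66% in trabecular bone in the report, was not taken anew under each setting. In callus the UMI cutoff alone removed barcodes of the control library only, since those of GC callus were already chosen. Settings can also change how many pairs are compared. These counts therefore do not show whether the members stood apart from other genes, and the cause of the moves was not tested. Members highest in a nonhematopoietic class of trabecular bone, 2 in the report, were 1 after thinning and 0 with no doublets removed. Across settings that gave a value, the log2 ratio lay between 0.94 and 1.16 for Il7r in T cells, 0.51 and 3.13 for Flt3 in mature neutrophils, 0.33 and 1.25 for Kit in early erythroid progenitors, -1.60 and -0.49 for Vcam1 in immature neutrophils and -6.85 and -2.75 for Il7r in B cells, with no change of sign. Few UMIs limit Il7, with 88 in callus and 6 in trabecular bone, and Kitl in trabecular bone, with 37.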

Other observations

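The genes whose levels were most like a member's were found by Pearson's r of log2(CPM + 5) over the named classes of a tissue, a description over classes that share libraries. Over 21 callus classes, Kitl was most like Prickle2, Nfib and Tfpi2 (r = 0.98 for the first), Il7r like Epsti1, Cd48 and Itgb7 (0.88 for the first), and Lepr like Ptprg (0.96). Over 17 trabecular bone classes, Kit was most like Muc13 (0.92), Angpt1 like Slc22a3 (0.94) and Vcam1 like Hfe (0.86).

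Promoter windows, from 250 bases before to 50 after a gene's start, were at hand for 6 of the 9 genes, in 8 windows. The whole palindrome of the glucocorticoid response element, the arm AGAACA and after 3 bases its reverse complement, was in 0 of the 8 and in 0.00913% of all 32851 windows on either strand. The arm AGAACA alone, which overlaps the palindrome, was in 0 of the 8 and in 19.0% of all windows. The STAT motif TTCNNNGAA was in 1 of the 8, that of Il7r, and in 8.30% of all windows.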
